A study of Mus musculus with 6 samples.

Results

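The 8 epidermal keratin genes Krt5, Krt14, Krt15, Krt1, Krt10, Krt2, Krt77 and Krt78 were examined in whole back skin, where they are 8 of 18193 genes and were read by 10 of the 45037 probe sets tested. Members were the probe sets whose platform annotation names exactly 1 gene symbol, that symbol being one of these 8, and every such probe set was kept. Krt14 had 3 probe sets and each of the others had 1. The tested skin came from 3 K5cre-caNrf2 mice, labelled tg/tg, which combine a Cre recombinase under a keratin 5 promoter with an always active version (caNrf2) of the transcription factor Nrf2. The 3 K5cre-wt mice, labelled tg/wt, are the controls, read here as carrying Cre without caNrf2. All 6 mice were females of 1 litter on a mixed FVB/N and C57BL/6 background, killed at postnatal day 2.5, and each gave 1 array. The keratin 5 promoter is active in basal keratinocytes and their follicle counterparts, so the transgene is switched on in the cells that make Krt5 and is carried into their suprabasal descendants. The sample descriptions add the word weak to both groups, without saying what it refers to.

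Keratins are the intermediate filament proteins of epithelia, and each filament is built from pairs of a type I and a type II chain. Basal keratinocytes, which divide and hold the epidermis to its basement membrane, make the type II keratin Krt5 with the type I keratins Krt14 and Krt15. When the cells leave the basal layer they switch to the type II keratin Krt1 with the type I keratin Krt10, and further type II keratins, among them Krt2, Krt77 and Krt78, are added in upper layers of the skin or at particular body sites. Nrf2 is the main activator of antioxidant and detoxification genes, and the active form used here lacks the control by its inhibitor Keap1. The comparison asks whether the transcripts that mark the basal and suprabasal layers differ when Nrf2 is always active in these cells.

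The values are intensities per probe set, made with RMA, and the median intensity lay between 80.7 and 81.9 on all 6 arrays. Values of different probe sets are not compared with each other as levels, since each probe set has its own brightness. Differences are caNrf2 minus control on the log2 scale, tested with limma and adjusted by Benjamini-Hochberg over all probe sets, with a threshold of 0.05. Nfe2l2, which encodes Nrf2, had 964, 860.1 and 864 intensity units on caNrf2 arrays and 657.1, 674.2 and 682.9 on control arrays (log2 difference 0.41 ± 0.08 SE, adjusted p = 0.0812), and a second, dim probe set overlapped between groups. Whether these probes bind the transgene was not analysed here. Nqo1, a quinone reductase and a standard target of Nrf2, was 12.2-fold higher in caNrf2 skin (adjusted p = 3.38e-07). Arrays correlated at 0.9961 to 0.9969 among caNrf2 mice and at 0.9978 to 0.9980 among controls, so the caNrf2 arrays were less alike. The log2 ratio of 3 prime to 5 prime control probe sets, a sign of RNA quality, shifted by 0.002 for Actb and by -0.03 for Gapdh, the second without overlap of the groups.

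The 250 bases before the annotated start site are given for 3 members. Krt5 is shown because a promoter of this name drives the Cre, Krt10 as a suprabasal keratin that hardly differed, and Krt77 as the member with the largest difference. Sequences and positions are from RefSeq on mouse assembly GRCm38.p6, all on the minus strand, and are written 5′ to 3′ in the direction of the gene. The windows are chr15:101712906-101713155 for Krt5, chr11:99389365-99389614 for Krt10 and chr15:101869706-101869955 for Krt77. Capitals mark the letters TATAAA, the form of the TATA box searched for, which were found in the Krt10 window only. Other forms of this box were not searched for, so its absence from the other windows is not shown.
Krt5: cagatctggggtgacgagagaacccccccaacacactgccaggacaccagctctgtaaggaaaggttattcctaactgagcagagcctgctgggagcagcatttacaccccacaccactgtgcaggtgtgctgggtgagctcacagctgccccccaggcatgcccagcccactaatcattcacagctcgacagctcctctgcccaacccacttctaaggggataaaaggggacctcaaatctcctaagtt
Krt10: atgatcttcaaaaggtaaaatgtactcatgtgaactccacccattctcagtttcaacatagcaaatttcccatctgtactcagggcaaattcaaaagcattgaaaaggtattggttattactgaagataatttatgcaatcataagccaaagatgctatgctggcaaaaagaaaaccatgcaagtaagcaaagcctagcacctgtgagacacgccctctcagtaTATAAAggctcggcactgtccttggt
Krt77: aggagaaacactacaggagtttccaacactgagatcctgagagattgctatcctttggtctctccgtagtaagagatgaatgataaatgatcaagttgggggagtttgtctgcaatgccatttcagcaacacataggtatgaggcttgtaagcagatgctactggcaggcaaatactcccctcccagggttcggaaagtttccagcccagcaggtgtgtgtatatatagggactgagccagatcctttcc
Windows were at hand for 6 of the 8 members, namely these 3 with Krt14, Krt2 and Krt78. None of the 6 held the core of the antioxidant response element bound by Nrf2 (TGACNNNGC, either strand), which was found in 10.2% of all 32851 windows of this length. None held an AP-1 site (TGANTCA, 6.75% of windows) or an AP-2 site (GCCNNNGGC, 13.7%). The TATA box (TATAAA, either strand, 12.4% of windows) was found 26 bases before the start of Krt10. The absence of these letters from a window says nothing about sites elsewhere, and some windows do not start at the outermost annotated end of their gene. They lie 42337 bases inside it for Krt78, 8085 for Krt10, 1480 for Krt14 and 787 for Krt2.

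Transcripts of the epidermal keratins were nearly equal in caNrf2 and control skin, apart from Krt77, which differed more, and Krt2, which was too dim to compare. Of the 10 probe sets 0 passed the threshold in limma, while 108 of all probe sets (0.24%) did. Of these 108, 102 were on the higher side, which is 0.226% of all probe sets. At an unadjusted p under 0.05 there was 1, Krt77, where 8.86% of all probe sets reached that level. The groups did not overlap for 1 of the 10 probe sets, again Krt77, against 14.2% of all probe sets. The median log2 difference of the 10 was 0.03, against -0.004 over all probe sets. Krt5, Krt15, Krt1, Krt10 and the brighter probe sets of Krt14 are among the 1000 brightest probe sets. These 1000 had a median of 0.002, with quartiles of -0.033 and 0.047. Their median difference regardless of sign was 0.04, against 0.074 over all, so small differences are common at this brightness. Of the 10, 9 were on the higher side in caNrf2 skin, against 21780 of the 45037 over all. These 9 include every probe set of Krt14, and the dimmest of Krt14, Krt10 and Krt1 were higher by only 0.001, 0.006 and 0.007. In whole skin, fewer cells of a type and less RNA per cell cannot be told apart.

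**Figure D1:**
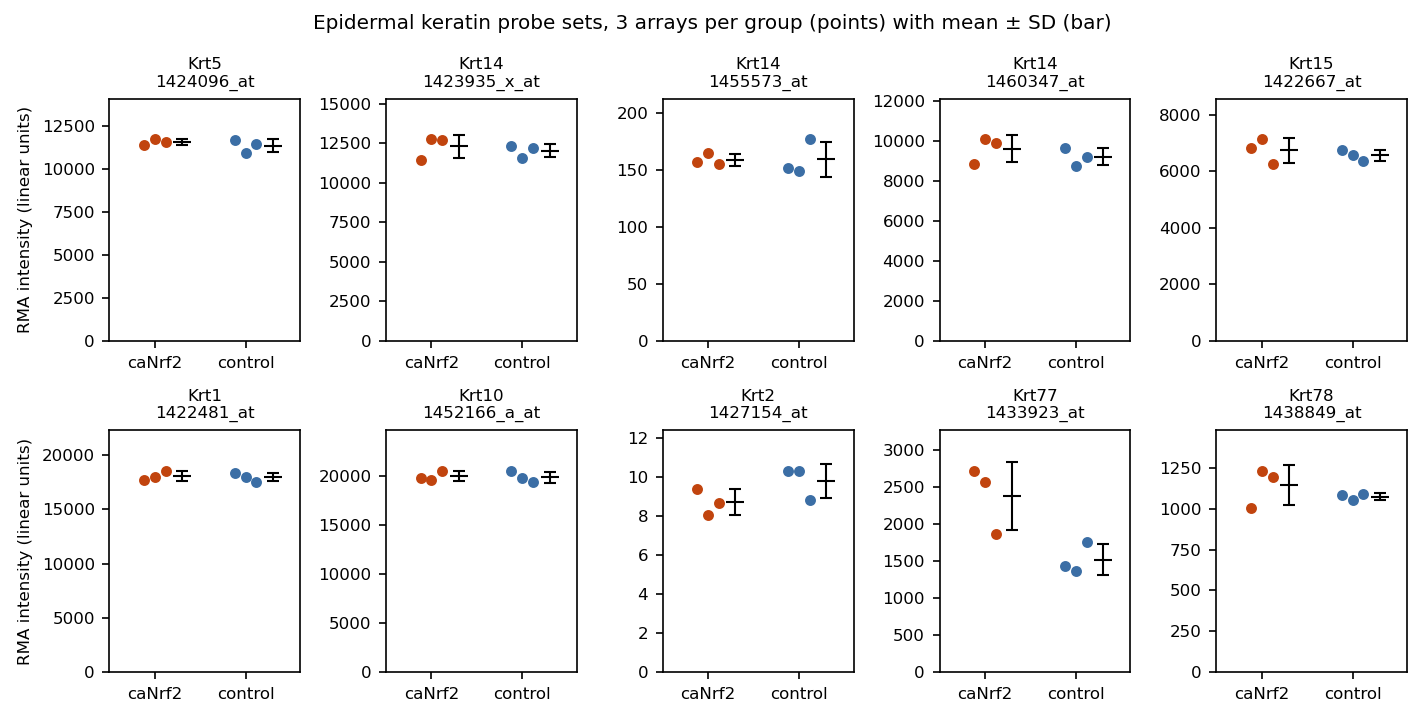
Intensity (RMA, linear units, axes from 0) of the 10 keratin probe sets on 3 caNrf2 arrays (left, red) and 3 control arrays (right, blue), with the mean and SD beside each group. Only for Krt77 do all caNrf2 arrays, between 1864 and 2720, lie above all control arrays, between 1369 and 1757.

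Krt5, the type II keratin of the basal layer, had 11360, 11720 and 11570 intensity units in caNrf2 skin, against 11670, 10940 and 11440 in control skin. The groups overlapped, and their highest arrays were almost equal. Its log2 difference was 0.03 ± 0.07 (SE, n = 3 each; adjusted p = 0.950 in limma), a 1.02-fold level with a 95% interval of 0.912 to 1.14. This interval is an estimate from 3 arrays per group and not a firm limit. Only 147 probe sets were brighter, and whether that of Krt5 was saturated was not tested.

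Krt14, the type I partner of Krt5, was read by 2 bright probe sets and 1 much dimmer one. The brightest had 11470, 12760 and 12730 units in caNrf2 skin and 12310, 11560 and 12220 in control skin, which is a 1.02-fold level (95% interval 0.908 to 1.15; adjusted p = 0.938 in limma). It is of a kind whose probes can also bind related transcripts. The second had 8818, 10070 and 9867 units in caNrf2 skin and 9634, 8757 and 9208 in control skin, a 1.04-fold level (95% interval 0.918 to 1.18). On both, caNrf2 arrays 2 and 3 were above all control arrays and caNrf2 array 1 was not, so the pair gave the same picture of overlapping groups. The dim probe set averaged 158.8 ± 5.29 units in caNrf2 skin and 159.1 ± 15.4 in control skin (SD, n = 3 each) and differed by 0.001 on the log2 scale.

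Krt15, a type I keratin of basal cells that is also known as a marker of the follicle bulge, had 6833, 7136 and 6273 units in caNrf2 skin and 6759, 6575 and 6365 in control skin. The caNrf2 arrays held both the highest and the lowest value. Its difference was 0.04 ± 0.08 (SE; adjusted p = 0.928 in limma), a 1.03-fold level with an interval of 0.910 to 1.16. Averaged over Krt5, Krt14 and Krt15 on their brightest probe sets, caNrf2 arrays 1 to 3 stood at -0.003, 0.08 and 0.02 relative to the control mean, and control arrays 1 to 3 at 0.04, -0.04 and -0.003. The basal keratins thus differed between groups by no more than between mice of 1 group.

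Krt1 and Krt10, the pair that replaces Krt5 and Krt14 as cells leave the basal layer, were the members with the smallest differences on their brightest probe sets. Krt1 had 17680, 17930 and 18550 units in caNrf2 skin and 18340, 18010 and 17550 in control skin. Krt10 had 19810, 19660 and 20580 units in caNrf2 skin and 20530, 19830 and 19430 in control skin. The ranges of the groups all but coincide for both genes. Krt1 was at a 1.005-fold level (95% interval 0.901 to 1.12; adjusted p = 0.990 in limma) and Krt10 at a 1.004-fold level (0.900 to 1.12; adjusted p = 0.991). Only 11 probe sets on the arrays were brighter than that of Krt1 and 2 brighter than that of Krt10. Arrays can compress differences near the top of their range, and whether these probe sets were saturated was not tested, since the table holds no scanner values.

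Krt78, a type II keratin of suprabasal epidermis, had 1002, 1231 and 1192 units in caNrf2 skin and 1080, 1051 and 1088 in control skin. Of the caNrf2 arrays the first was below and the others above every control array. The difference was 0.08 ± 0.09 (SE; adjusted p = 0.830 in limma), a 1.06-fold level with an interval of 0.924 to 1.22. The SD of the log2 values was 0.16 in caNrf2 skin and 0.03 in control skin.

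Krt2, a type II keratin of the uppermost living layers at particular body sites, was close to the floor of the arrays. It had 9.412, 8.073 and 8.672 units in caNrf2 skin and 10.34, 10.31 and 8.827 in control skin, and only 4.16% of all probe sets were dimmer. Its log2 difference of -0.17 ± 0.09 (SE; adjusted p = 0.623 in limma) is a difference between values near background, with overlapping groups. At this brightness no level of Krt2 can be given for either group. The other 9 probe sets lay above the median level of all probe sets.

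Krt77, a type II keratin closely related to Krt1 and made in suprabasal mouse epidermis, had the largest difference of the 8 genes. It had 2720, 2567 and 1864 units in caNrf2 skin, against 1429, 1369 and 1757 in control skin. All caNrf2 arrays were above all control arrays, but the lowest caNrf2 array exceeded the highest control array by little. The mean was 2384 ± 456.5 units in caNrf2 skin and 1518 ± 208.9 in control skin (SD, n = 3 each), a 1.56-fold level with a 95% interval of 1.25 to 1.94. The log2 difference of 0.64 ± 0.14 (SE) did not pass the threshold (unadjusted p = 0.00094; adjusted p = 0.181 in limma). It was larger in size than that of 99.8% of all probe sets. Without caNrf2 array 3 the difference was 0.81 and passed (adjusted p = 0.0224), and without any other single array it did not, with adjusted p between 0.173 and 0.624.

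**Figure D2:**
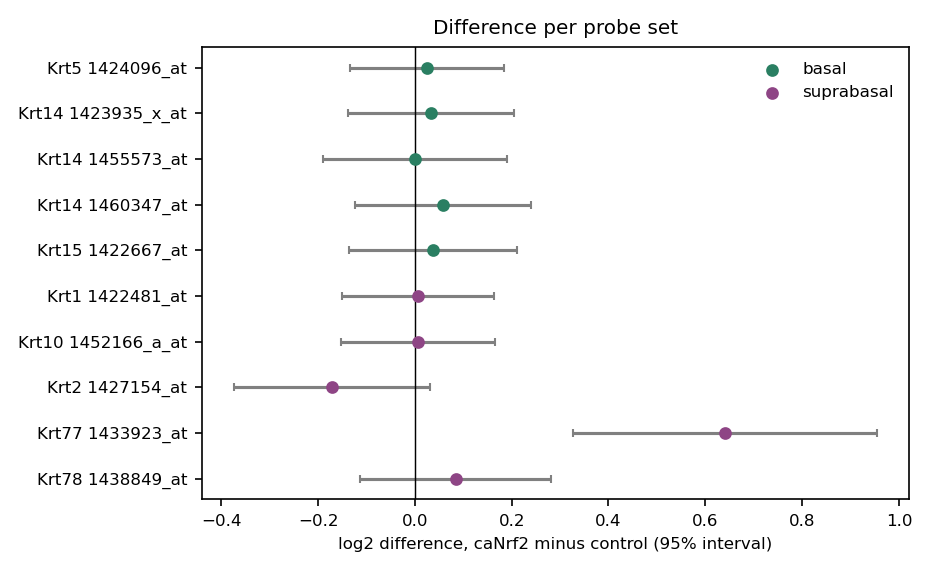
Log2 difference, caNrf2 minus control, of each keratin probe set (points, coloured by layer) with its 95% interval from limma (bars). The interval of Krt77, 0.33 to 0.95, lies above 0, and the intervals of the other 9 probe sets include 0.

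The pairing of type II and type I chains can be followed as a shift of their log2 ratio within each array, relative to the control mean. For Krt1 over Krt10 the shifts were -0.02, 0.02 and 0.00 on caNrf2 arrays 1 to 3 and -0.01, 0.01 and 0.003 on control arrays 1 to 3. This ratio was the steadiest of the 5 examined, with a mean shift of 0.001 in caNrf2 skin. Both of its probe sets are among the brightest on the arrays, where differences can be compressed, and saturation was not tested. For Krt5 over Krt14 the shifts were 0.07, -0.04 and -0.05 on caNrf2 arrays and 0.01, 0.004 and -0.01 on control arrays, a mean of -0.01 in caNrf2 skin with overlapping groups. Krt77 over Krt10 shifted by 0.86, 0.79 and 0.26 on caNrf2 arrays and by -0.12, -0.13 and 0.26 on control arrays. In that ratio caNrf2 array 3 (0.258) and control array 3 (0.256) were almost equal, although the groups do not overlap. Krt5 over Krt15 and Krt78 over Krt10 had mean shifts of -0.01 and 0.08 in caNrf2 skin, with overlap in each. No ratio is given for Krt2, which was near background.

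Across the 6 arrays, Krt1 and Krt10 went together with a Pearson correlation of 0.93, and Krt14 and Krt78 with 0.93. Krt5 and Krt14 correlated at 0.80. Krt77 had -0.38 against Krt1 and -0.34 against Krt10. With each group centred on its own mean these were -0.92 and -0.80, so within groups Krt77 ran opposite to that pair on these arrays. All these values describe 6 arrays that share 1 normalisation, and the levels of Krt1 and Krt10 moved only within the narrow ranges given above. Of 91 genes of the keratin, partner, marker and regulator lists that reached the median level, those most like the mean profile of the basal members were Jun (0.87), Tgm1 (0.84) and Ovol2 (0.83). Those most like the mean of the suprabasal members were Ppl (0.91), Grhl2 (0.90) and Klf5 (0.89). For each of these genes, as for the suprabasal mean, all caNrf2 arrays were above all control arrays. Their correlations therefore include the difference between groups, and values within groups are not given for them. The suprabasal mean was moved mainly by Krt77, and it also includes Krt2, which was near background. Grhl2 differed by 0.06 on its brightest probe set, the one used here, and by -0.07, 0.01 and -0.13 on its dimmer ones.

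The other keratins lie with the members in 2 gene clusters, and none of the others passed the threshold. On chromosome 11 the type I genes Krt10, Krt14 and Krt15 stand among 21 other measured keratins, which had a median log2 difference of -0.04 and of which 0 passed (2 at an unadjusted p under 0.05). On chromosome 15 the type II genes Krt5, Krt1, Krt2, Krt77 and Krt78 stand among 19 others, with a median of -0.03 and again 0 that passed (0 unadjusted). Over all genes, each by its brightest probe set, 0.324% passed and the median was -0.01. Krt1 and Krt76, the measured keratins on either side of Krt77 in gene order, differed by 0.01 and -0.002.

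**Figure D3:**
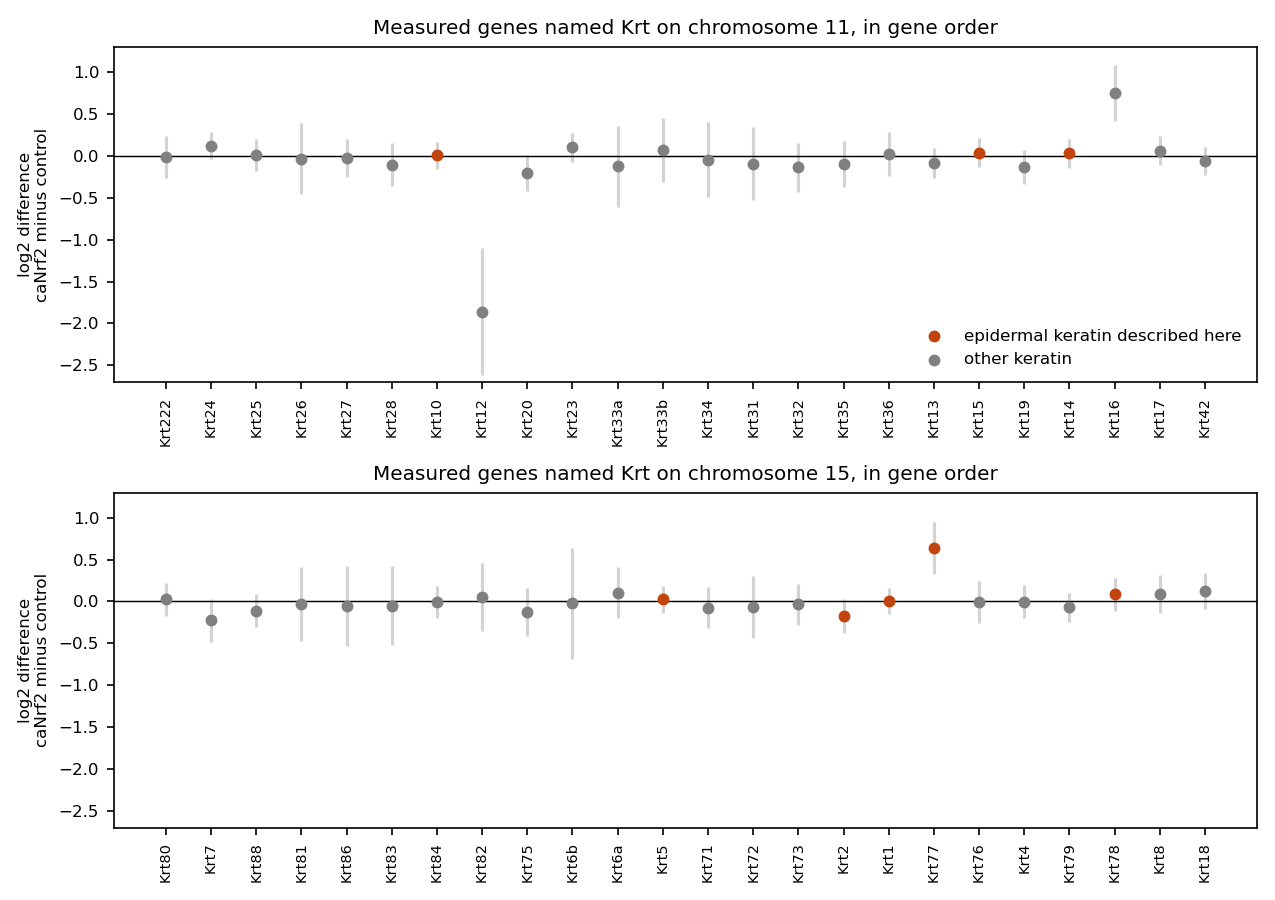
Log2 difference, caNrf2 minus control, with 95% interval, of every measured gene named Krt on chromosomes 11 and 15, placed in gene order (equal spacing, not to genomic scale). Of the 8 epidermal keratins (red), Krt77 lies at 0.64, Krt2, which is close to background, at -0.17 and the others within 0.1 of 0, and among the others (grey) Krt12 at -1.86 and Krt16 at 0.75 stand off.

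The 4 stress keratins, which epidermis makes on wounding or hyperproliferation, had a median difference of 0.09, and 0 of the 4 passed (1 at an unadjusted p under 0.05). This median was 0.014 without caNrf2 array 1, 0.20 without caNrf2 array 3 and 0.16 without control array 3. Krt16 had 604.3, 689.5 and 853.4 units in caNrf2 skin, against 488.2, 337.2 and 452.6 in control skin, a 1.68-fold level without overlap of the groups (adjusted p = 0.119 in limma). Krt17 was at 1.05-fold, Krt6a at 1.08-fold and Krt6b at 0.984-fold (adjusted p from 0.855 to 0.992). Krt16, like Krt77, is thus a keratin of larger difference that missed the threshold. With an intensity trend in the variance model Krt16 passed (adjusted p = 0.0353) and Krt77 did not (0.0581).

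Among 13 measured keratins of other epithelia the median was -0.002 and 0 passed (1 unadjusted). Krt12, the keratin of the corneal epithelium, had 65.17, 57.9 and 145.7 units in caNrf2 skin and 468.5, 200.1 and 279.3 in control skin. All caNrf2 arrays were below all control arrays, a 0.276-fold level (95% interval 0.163 to 0.466; adjusted p = 0.0768 in limma), and a second probe set differed by -2.01. Without caNrf2 array 3 the first passed (-2.27, adjusted p = 0.00684). Krt20, a keratin of Merkel cells and gut, differed by -0.20, and Krt7, of simple and glandular epithelia, by -0.23, neither of which passed. The Krt20 probe set was dim, between 29.92 and 42.8 units, with 32.5% of all probe sets dimmer.

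Of the genes that mark the same layers without being keratins, none passed the threshold. Of 10 measured basal markers 0 passed (0 at an unadjusted p under 0.05 in limma) and 9 were on the higher side, with a median of 0.06. The integrin subunits Itgb1, Itga6 and Itgb4, which anchor basal cells, differed by 0.15, 0.12 and 0.12 (adjusted p from 0.602 to 0.774 in limma). Without caNrf2 array 2 Itgb4 differed by 0.00048, and as the mean of its probe sets Itgb1 differed by 0.06. The basal list averaged 0.04, 0.13 and 0.05 on caNrf2 arrays 1 to 3 and -0.02, 0.02 and 0.01 on control arrays, without overlap of the groups. Of 14 suprabasal markers 0 passed (1 unadjusted) and 12 were on the higher side, with a median of 0.04. The transglutaminase Tgm3, which crosslinks the cornified envelope, was at 1.19-fold (adjusted p = 0.455), and the desmosomal cadherins Dsg1b and Dsg1a at 1.19-fold and 1.08-fold. The suprabasal list averaged 0.08, 0.02 and 0.08 on caNrf2 arrays 1 to 3 and 0.03, 0.003 and -0.03 on control arrays, which places caNrf2 array 2 between the controls.

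Proteins that hold keratin filaments to cell junctions or bundle them had a median of -0.01 over 13 measured genes, of which 0 passed (0 unadjusted). Periplakin, Ppl, differed by 0.10, plakophilin 2, Pkp2, by -0.19 and epiplakin, Eppk1, by -0.12 (adjusted p from 0.663 to 0.750 in limma). Of 24 measured regulators of keratin genes 0 passed (5 unadjusted), with a median of 0.04. Tfap2a, which encodes the factor AP-2 alpha that binds keratin promoters, had 1196, 1137 and 1055 units in caNrf2 skin and 1365, 1391 and 1408 in control skin. These groups did not overlap (log2 difference -0.30 ± 0.08 SE, adjusted p = 0.298), a second probe set gave -0.27, and a dimmer one gave -0.11 with overlapping groups. Fos, part of AP-1, differed by 0.46 and Ehf, an ETS factor of epithelia, by 0.35 (adjusted p = 0.445 and 0.457), and neither passed.

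Keratins of the hair follicle varied widely between the caNrf2 arrays and hardly between the controls. The 12 measured hair shaft keratins averaged 0.31, 0.06 and -0.50 on caNrf2 arrays 1 to 3 and 0.01, 0.03 and -0.04 on control arrays 1 to 3. The 9 keratins listed as follicle sheath averaged 0.18, -0.01 and -0.35 on caNrf2 arrays and 0.002, -0.01 and 0.003 on control arrays. Among them, Krt79 is a keratin of the upper follicle rather than of the sheath. Its caNrf2 values did not have the order of the list mean (7369, 7845 and 6886 units). The sheath list had a median of -0.07, with Krt75 at -0.12, Krt79 at -0.07 and Krt28 at -0.10, and 0 of the 9 passed (0 unadjusted). Of the hair shaft keratins 0 passed too (0 unadjusted). Krt77 stood at 0.85, 0.77 and 0.31 on the same caNrf2 arrays, so the array lowest in follicle keratins was also the lowest in Krt77. The mean of the stress keratin list had the same order, at 0.38, 0.18 and 0.11 on caNrf2 arrays 1 to 3. Among its genes only Krt6a had this order (2501, 2157 and 1579 units). Krt16, with the largest difference of the list, had the reverse order (604.3, 689.5 and 853.4 units). Krt17 was highest and Krt6b lowest on caNrf2 array 2. The part of the follicle in the order of Krt77 was not tested. Without caNrf2 array 3 the median was 0.23 for hair shaft and 0.09 for sheath keratins. On control arrays, where the follicle lists were level, Krt77 stood at -0.08, -0.14 and 0.22.

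**Figure D4:**
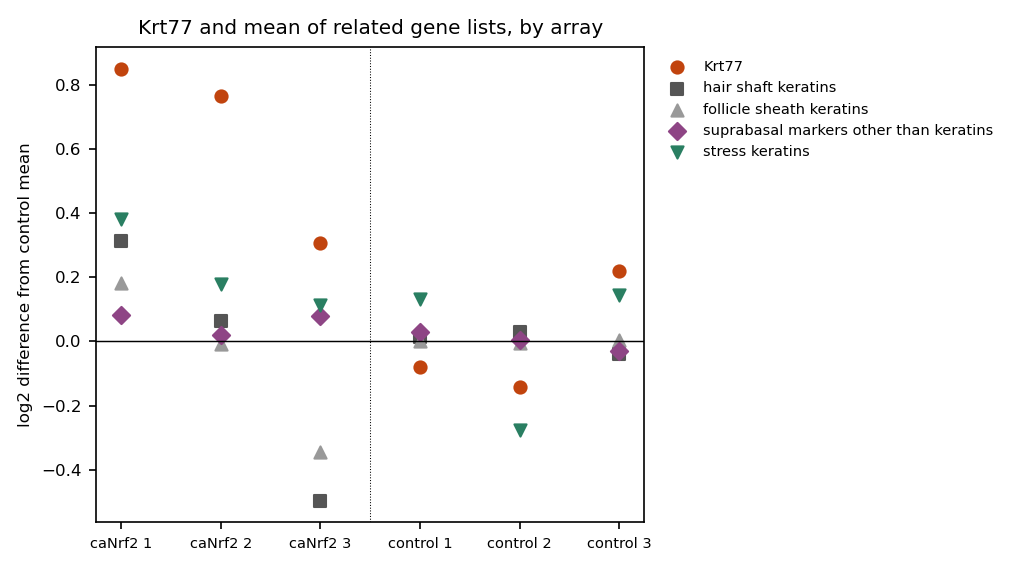
Log2 difference from the control mean on each array for Krt77 (circles) and for the mean of 4 gene lists, namely hair shaft keratins (squares), follicle sheath keratins (upward triangles), suprabasal markers (diamonds) and stress keratins (downward triangles). Krt77 and the means of both follicle keratin lists and of the stress keratins share their order over the 3 caNrf2 arrays. Within the stress list Krt16 has the reverse order. Of the 5 items plotted Krt77 has no overlap of the groups.

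Among lists of other cells in the skin, 1 gene passed the threshold, in the sebaceous list, and several medians were farther from 0 than that of the epidermal keratins. The median difference was -0.004 for 6 fibroblast, -0.003 for 5 muscle, -0.10 for 5 adipocyte, -0.08 for 5 endothelial and -0.005 for 5 macrophage markers, with 0 genes that passed in these lists, also at an unadjusted p under 0.05. It was -0.13 for 4 T cell, -0.10 for 4 Langerhans and dendritic cell and -0.04 for 5 melanocyte markers, again with 0 that passed either way. In 5 sebaceous genes the median was -0.16, and 1 passed (2 at an unadjusted p under 0.05). This was the desaturase Scd3, which fell by 0.81 (adjusted p = 0.0331), a call lost when any 1 array was left out (adjusted p 0.0532 to 0.170). The other was the elongase Elovl3, at -0.37 (adjusted p = 0.424). The sebaceous list averaged -0.20, -0.20 and -0.44 on caNrf2 arrays 1 to 3 and 0.09, -0.05 and -0.04 on control arrays, without overlap, and its part in the keratin values was not tested. Summed fibroblast intensities were 69440 to 71450 in caNrf2 skin and 68620 to 71370 in control skin. Summed adipocyte intensities were 27640 to 28290 in caNrf2 skin and 27690 to 31080 in control skin. The ranges overlapped for both lists, and their part in the keratin values was not tested.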

How the data were processed

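Total RNA of whole back skin was labelled from 2 µg with a one-cycle kit for Affymetrix arrays, per the labels' protocols. The deposited table holds 1 linear intensity per probe set and array, made by the authors with RMA, per the submitters' processing notes, whose version is not given in the sources used here. This step equalises array distributions and compresses folds near background. Columns of other series numbered 0. Of 45101 probe sets, 64 controls were left out. The platform annotation gave 1 symbol to 34945 of 45037, several to 932 and none to 9160. Intensities were converted to log2 and fitted with limma 3.58.1 in R 4.3.3 (lmFit, eBayes without trend or block). SE and 95% intervals come from this fit, with 3 mice per group, and the number of arrays limits precision. The fit was tested on simulated data.

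Related lists were described by counts and medians on the brightest of each gene's probe sets, without a set test. Members, lists and tests were chosen with earlier results of these data known. Named were all members, the 3 genes of smallest p in each of 7 related lists, called genes, Nfe2l2, Nqo1 and the genes most like the members. Same-numbered mice correlated at -0.15, -0.04 and 0.04 in their deviations, and unlike-numbered mice at -0.13 to 0.16. No pairing by number was thus evident, though deviations centred within groups of 3 cannot exclude it. Gene order came from assembly GRCm38.p6. Alternatives covered a replicate block, normalisation, filtering, variance models, probe set summaries and leaving out each array.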

Additional observations from a re-analysis of the deposited data

How the results depend on the processing

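The 10 keratin probe sets gave 167 values under 17 alternatives, of which 152 kept direction and side of the threshold, 14 changed sign near 0 and 1, Krt77 without caNrf2 array 3, passed the threshold. The number of members passing was therefore 0 to 1 with an array left out, and 0 in the other alternatives. The median of the members ran from 0.01 to 0.05. The replicate block changed no call of a member, with Krt77 at adjusted p = 0.271, and of the other named genes moved only Krt12 past the threshold (adjusted p = 0.0207). Krt12 also passed with the filter on low values (0.0474) and the intensity trend (0.0218). Nfe2l2 passed with both of these settings (0.0275 and 0.0171), and Nqo1 missed on linear values (0.0659). Scd3 lost its call without any 1 of the arrays (adjusted p 0.0532 to 0.170), on linear values (0.402) and as a mean of probe sets (0.0550).

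Changes of sign among members were of the dim Krt14 probe set, to -0.0217 under further quantile normalisation, -0.012 under cyclic loess, -0.0187 under array weights and -0.333 units on linear values, and of Krt10, to -0.0057 under further quantile normalisation. With an array left out, the dim Krt14 probe set ran from -0.0464 to 0.0789, Krt5 from -0.00067 to 0.0459, Krt15 from -0.0038 to 0.0892, Krt1 from -0.0128 to 0.0218 and Krt10 from -0.0138 to 0.0279. Outside the members Krt6a changed sign to -0.022 under array weights and ran from -0.0399 to 0.292 with an array left out, Krt75 from -0.231 to 0.0554 and Krt28 from -0.241 to 0.0249. The cause was not tested.

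Over all probe sets 102 passed higher and 6 lower. The higher count was 13 on linear values, 63 with 1 probe set per gene, 60 with the mean of probe sets, where fewer features are tested, and 61 to 111 with an array left out. The lower count was 14 with an intensity trend, 15 with array weights, 1 on linear values, 3 with the mean of probe sets and 1 to 25 with an array left out. Keratins of other epithelia had a median of -0.0512 with the mean of probe sets, and -0.0548 to 0.0223 with an array left out, when 0 to 1 of them passed. Keratin filament partners ran from -0.0199 to 0.0221 with an array left out. Re-normalisation moved the median of all probe sets by at most 0.006. Differences near 0 cannot be told from none with 3 arrays per group, and Krt2 was too dim to measure.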

Other observations

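One probe set, annotated to Krt17 and Krt14 together, was left out of the members because it names 2 genes. It had 62.81, 58.49 and 55.49 intensity units in caNrf2 skin and 57.22, 65.44 and 60.5 in control skin, a difference of -0.05 ± 0.08 (log2, SE; adjusted p = 0.900 in limma) with overlapping groups. Of all probe sets, 43.9% were dimmer.

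Klf5, a regulator of basal keratinocytes, is among the genes most like the suprabasal mean, and its 2 brighter probe sets had similar differences. The brightest had 3174, 3222 and 3093 units in caNrf2 skin and 2802, 2906 and 2718 in control skin, a difference of 0.17 ± 0.07. The next had 330.4, 338.5 and 339.4 units in caNrf2 skin and 286.6, 294.5 and 292.7 in control skin, a difference of 0.21 ± 0.07. The groups did not overlap on either, and neither passed the threshold (unadjusted p = 0.0371 and 0.0137). The dimmest, near background, differed by 0.02.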
